A study of Mus musculus with 4 samples.

Results

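The mitochondrial respiratory chain and the ATP synthase are built from a large set of nuclear genes, and 86 of them could be read in this study of mouse embryonic stem cells without Snai1. They were taken by symbol, as every gene whose name on the array platform begins with Ndufa, Ndufb, Ndufc, Ndufs, Ndufv, Uqcr, Cox4i, Cox5, Cox6, Cox7, Cox8 or Atp5 and that has a probe set naming no other gene. They are 86 of 18193 genes read by such probe sets, and they have 170 probe sets among them. Of the 86, 70 are broadly expressed subunits, 8 are tissue-specific isoforms and 8 are assembly factors of complex I, whose symbols begin with Ndufaf. The 70 subunits divide into 34 of complex I, 8 of complex III, 11 of complex IV and 17 of complex V, the ATP synthase. Ndufa4 and Cox7a2l are counted in complex IV.

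The study compared embryonic stem cells with the genotype F/F, its controls, with Snai1 knockout cells, each differentiated in culture and grown as a tumour. Snai1 is a zinc finger repressor known for shutting down epithelial genes. The cultured samples were embryoid bodies, free-floating aggregates of differentiating cells, taken on day 5 without directed differentiation. The tumours were teratomas, taken at week 6 after the cells had been placed under the skin of the hind limbs of male nude mice that were 6 weeks old. Nude mice lack T cells and keep B cells and myeloid cells, so a tumour sample can also hold host blood, vessel and muscle cells. The labels describe neither how the F/F cells were made nor how many clones, cultures or tumours went into a sample. RNA came from purification columns for embryoid bodies and from Trizol for teratomas, so extraction and tissue cannot be told apart.

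Each of the 4 groups was a single Affymetrix array, so no value has a replicate error, no test was possible and no p-value is given. The values are log2 expression levels, in which a difference of 1 is 2-fold. A floor was set at the median probe set of each array, 4.71 and 4.73 for the control and knockout embryoid bodies and 5.08 and 5.04 for the control and knockout teratomas. A level under the floor is treated as not measured, and a difference with 1 such level is given as a bound. A member with at least 1 of the 2 arrays at or above the floor counts as measured in a comparison. The only internal guide to error was the disagreement between probe sets of the same gene, whose pooled standard deviation over members was 0.21 for knockout minus control in embryoid bodies and 0.19 in teratomas. It leaves out all variation between cultures and tumours.

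The Snai1 probe set read 4.78 on the control embryoid body array, close to the floor, and 3.45, 3.59 and 3.44 on the other three, all under it. It therefore could not check the labels in teratomas, and whether it lies in the deleted part is not given in the sources used here. Snai2, the related repressor, was lower in the knockout in both tissues (-1.52 in embryoid bodies and -1.28 in teratomas). Over all probe sets the correlation was 0.982 between the embryoid body arrays, 0.985 between the teratoma arrays and 0.864 to 0.881 across tissues. In both genotypes 12 of 13 measured skeletal muscle markers and 9 of 9 neuron markers were at least 2-fold higher in the teratoma, and the embryonic globins Hba-x, Hbb-y and Hbb-bh1 were under the floor there. The 3' minus 5' difference of the Gapdh control probe sets, a gauge of RNA integrity, was 0.17 and 0.10 on the control and knockout embryoid body arrays and 0.65 and 0.40 on the teratoma arrays.

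In the inner mitochondrial membrane, complex I takes electrons from NADH, complex III passes them from ubiquinol to cytochrome c, and complex IV hands them to oxygen. Each of these complexes pumps protons, and the ATP synthase lets them flow back to make ATP. Most subunits are encoded in the nucleus and a few in mitochondrial DNA, which the members do not include. In complex IV some subunits exist as paired isoforms, with a broadly expressed form and another used in muscle, testis or under low oxygen. The factors NRF1 and GABP are known to bind promoters of many of these genes.

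RefSeq promoter windows (build GRCm38.p6, 250 bases before to 50 bases after the annotated start) were matched for 71 of the 86 members. The NRF1 palindrome, shown in capitals in the Cox6a1 stretch below and searched on both strands as all motifs here, was found in 6 of the 71 windows (8.45%), against 1.75% of windows of all genes on the array and 3.49% of those of genes with a mean level of 10 or more. Its holders were Atp5g2, Atp5k, Cox6a1, Uqcrc1, Ndufaf4 and Ndufaf5, and none of 31 complex I subunits with a window. The GABP core CCGGAAG was in 23.9% of member windows, 15.0% of all and 23.2% of those of highly expressed genes. The sequence CAGGTG, the E-box that Snai1 binds, was in 19.7% of member windows, 23.0% of all and 18.4% of those of highly expressed genes. The hypoxia element ACGTG was in 25.4%, 26.2% and 35.3% of them. The 60-base stretches below come from members named in the text. Each lies upstream of an annotated start, on the minus strand, and is written 5′ to 3′. Ndufa5 has 2 annotated starts, and its stretch reaches across the other start. Capitals mark the NRF1 palindrome in Cox6a1, Atp5g2 and Atp5k. In Ndufb10, Ndufs5 and Ndufa5, the complex I genes whose knockout difference changed most from embryoid bodies to teratomas, capitals mark CGCAGGCG, a word picked after these windows were read. That word is in 11.3% of member windows, 7.13% of all and 13.1% of those of highly expressed genes. In complex I it is in 5 of 31 windows (16.1%), which include those of Ndufb10, Ndufs5 and Ndufa5. In Cox8b, a muscle isoform, capitals mark the E-box CAGCTG, also picked after reading, which is in 8.45% of member windows and 18.8% of all. The Ndufb10 stretch holds CAGCTG too, left in small letters, and of its 6 holders among members 5 are broadly expressed subunits. None of these words contains another, and a match is a run of letters and not a measured binding site.
Ndufb10, chr17:24724424-24724483: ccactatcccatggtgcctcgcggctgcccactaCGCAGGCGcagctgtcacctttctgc
Ndufs5, chr4:123718250-123718309: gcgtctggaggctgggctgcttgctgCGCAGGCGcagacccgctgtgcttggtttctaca
Ndufa5, chr6:24527682-24527741: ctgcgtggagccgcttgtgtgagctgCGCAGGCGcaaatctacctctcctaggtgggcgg
Cox6a1, chr5:115349086-115349145: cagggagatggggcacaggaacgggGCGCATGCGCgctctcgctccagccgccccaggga
Atp5g2, chr15:102671055-102671114: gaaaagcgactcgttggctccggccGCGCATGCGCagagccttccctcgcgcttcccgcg
Atp5k, chr5:108434415-108434474: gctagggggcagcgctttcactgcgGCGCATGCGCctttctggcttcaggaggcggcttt
Cox8b, chr7:140900447-140900506: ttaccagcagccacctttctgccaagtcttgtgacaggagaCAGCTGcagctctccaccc

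Nearly all members were expressed in both tissues and both genotypes. Of the 86, 82 were above the floor on all 4 arrays, and 62 of the 70 subunits had a mean level of 10 or more, a height reached by 1319 of the 18193 genes. Of the 4 others, 2 were below the floor on every array. One is the testis isoform Cox7b2, and the other is Ndufb4, whose only single-gene probe set stayed between 3.27 and 3.53 while both probe sets it shares with its gene copies read at 9.99 to 10.85. Cox8b and Cox4i2, both isoforms, crossed the floor. Cox7c and Ndufb1 were read by dim probe sets, with levels between 5.12 and 7.41, and their values lie at the ends of several comparisons below. Probe sets with names ending in _x_at, _s_at or _a_at, called shared-sequence here, read 41 of the 86 members. Such probe sets can match other transcripts, either of the same gene or of other genes.

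Loss of Snai1 went with no 2-fold difference in any of the 69 measured subunits in embryoid bodies, each read by its brightest probe set. There 2.18% of 12282 measured genes were 2-fold higher and 3.98% 2-fold lower. The differences that existed were small and mostly downward. The median subunit difference was -0.076, with 20 of 69 above 0, while the median over all measured genes was 0.026 and over genes with a mean level of 10 or more -0.011. In teratomas the same 69 subunits again had no 2-fold difference, against 3.25% of 12197 measured genes higher and 1.07% lower, but their differences were mostly upward. There the median subunit was higher by 0.16, with 59 of 69 above 0, beside 0.065 over all measured genes and 0.039 over highly expressed ones. Quantile normalization of the 4 arrays together left the teratoma median at 0.054 with 44 of 69 above 0, and all measured genes at -0.018. Above 0 were 53.3% of measured genes in embryoid bodies and 57.6% in teratomas. At 1.5-fold, 1 subunit was higher (Ndufb1) and 1 lower (Ndufa5) in knockout embryoid bodies, where 6.92% and 8.34% of genes were, and 2 were higher (Ndufb10 and Atp5g1) and 1 lower (Cox7c) in knockout teratomas, where 10.3% and 5.05% were.

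**Figure D1:**
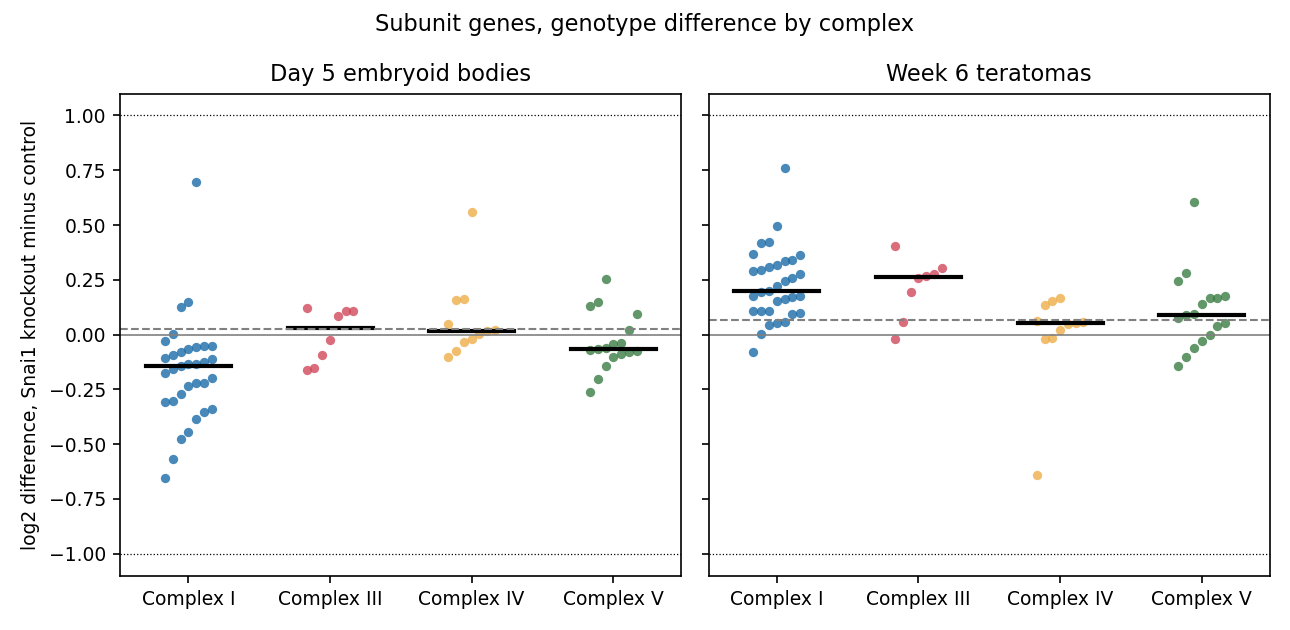
Log2 difference, knockout minus control, of each measured subunit (points), grouped by complex, with the group medians as bars, the all-gene median dashed and 2-fold dotted, in embryoid bodies and in teratomas. Complex I sits mostly below 0 in embryoid bodies (29 of 33) and mostly above 0 in teratomas (32 of 33), and no subunit reaches a difference of 1.

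Complex I, the entry point for electrons from NADH, had the lowest median of the 4 complexes in embryoid bodies. Its median was -0.14, and 29 of its 33 measured subunits were below 0, while 46.6% of all measured genes and 52.1% of highly expressed ones were. At the level of probe sets, 60 of 68 were below 0. The 6 measured core subunits, which carry the redox centres and have bacterial relatives, had a median of -0.079 with 5 below 0. The 27 measured accessory subunits, which surround the core, had a median of -0.16 with 24 below 0. In teratomas the complex I median was 0.20 and 32 of 33 subunits were above 0, beside 57.6% of all measured genes and 56.9% of highly expressed ones, with 60 of 65 probe sets above 0. Here the core subunits had a median of 0.30 with 6 of 6 above 0, and the accessory subunits a median of 0.19 with 26 of 27 above 0.

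Ndufb10, an accessory subunit of the membrane arm, differed most among the complex I subunits between genotypes in teratomas. Its levels were 10.12 in the control and 9.56 in the knockout embryoid body, and 9.20 in the control and 9.96 in the knockout teratoma. The control teratoma was therefore the lowest array and the control embryoid body the highest. The knockout difference was -0.57 in embryoid bodies and 0.76 in teratomas, which are factors of 1.48 lower and 1.69 higher, from a single probe set. Ndufs5, another accessory subunit on the membrane arm, read 9.73, 9.25, 9.06 and 9.55 in the same order. Its differences were -0.48 and 0.50, and a brighter probe set that it shares with a pseudogene gave -0.45 and 0.38.

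Ndufa5, an accessory subunit of the peripheral arm, was the lowest of all subunits in knockout embryoid bodies. It read 10.02 in the control and 9.36 in the knockout embryoid body, a difference of -0.66, and 9.58 and 9.89 in the control and knockout teratoma, a difference of 0.31. Its other probe set gave -0.78 and 0.50, so both probe sets placed it lower in one tissue and higher in the other. Ndufs7, a core subunit that holds an iron-sulfur cluster, read 10.91, 10.47, 10.51 and 10.79 on the same 4 arrays. The control embryoid body again stood highest, and the differences were -0.44 and 0.28. The other Ndufs7 probe set gave -0.079 and 0.20. Ndufb11, an accessory subunit encoded on the X chromosome, was at -0.39 in embryoid bodies and at 0.11 in teratomas.

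The core subunits with the largest teratoma differences were Ndufs3 and Ndufs1. Ndufs3, part of the peripheral arm, read 11.04 and 10.93 in the embryoid bodies and 10.33 and 10.75 in the control and knockout teratoma, so that its knockout difference was -0.11 and then 0.42. Ndufs1, the largest iron-sulfur subunit, differed by -0.051 and 0.37. By their chosen probe sets Ndufv2 was above 0 in both tissues, at 0.12 and 0.17, and Ndufa12 below 0 in both, at -0.23 and -0.079. The other probe sets of Ndufv2 gave -0.21 and -0.29 in embryoid bodies and one of Ndufa12 gave 0.078 in teratomas, so these directions are uncertain. The 3 probe sets of Ndufs4, a subunit of the peripheral arm, ranged from -0.58 to 0.47 in embryoid bodies, so its direction there is uncertain. Ndufb1, read by a dim probe set, was the highest of all subunits in knockout embryoid bodies at 0.70 and also above 0 in teratomas at 0.42. Its levels of 6.72 and 7.41 in embryoid bodies and 5.69 and 6.11 in teratomas put the knockout above the control each time.

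Complex III, which passes electrons to cytochrome c, was split in embryoid bodies and mostly above 0 in teratomas. Its median was 0.029 in embryoid bodies with 4 of 8 above 0, and 0.26 in teratomas with 7 of 8 above 0. Uqcr10, a small membrane subunit, was the highest in teratomas. It read 10.80, 10.70, 10.23 and 10.63 in the order used above, with the control teratoma lowest and a teratoma difference of 0.40, and its 3 probe sets ranged from 0.40 to 0.84. Uqcrfs1, the Rieske iron-sulfur protein, was higher in the knockout in both tissues, by 0.12 and 0.26. Uqcrb, a ubiquinone-binding subunit, had differences of -0.16 in embryoid bodies and 0.20 in teratomas. For Uqcrc2, a core protein, the chosen probe set gave 0.083 and -0.022 while a dimmer one gave -0.49 and 0.74, so its direction depends on the probe set.

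Complex IV, cytochrome c oxidase, had the gene medians nearest 0. Its median was 0.016 in embryoid bodies with 7 of 11 subunits above 0, and 0.054 in teratomas with 8 of 11 above 0. Cox4i1, which stabilises the catalytic core, read 12.32 and 12.33 in embryoid bodies and 12.58 and 12.60 in teratomas, which are differences of 0.0049 and 0.019 between genotypes. Cox5a, a small matrix-side subunit, was higher by 0.16 and 0.17 by its chosen probe set, while its others gave -0.15 and -0.19 in embryoid bodies. Cox8a, a membrane subunit, was higher in the knockout by 0.16 and 0.15. Over all measured probe sets of the complex, 11 of 24 were above 0 in embryoid bodies and 20 of 23 in teratomas, with medians of -0.019 and 0.11. Cox7c was the exception in both tissues, at 0.56 and -0.64. Its dim probe set read 5.12, 5.68, 6.37 and 5.72, the first of these close to the floor, and a floor at the 65th percentile left it unmeasured in the control tissue comparison.

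In the ATP synthase the catalytic head had a median of the opposite sign to the whole complex in embryoid bodies. All 17 subunits had a median of -0.066 there with 5 above 0, while the 5 subunits of the F1 head, which makes ATP, had a median of 0.13 with 3 above 0. Atp5b, the catalytic beta subunit, was the highest in embryoid bodies, with levels of 11.71 in the control and 11.97 in the knockout, a difference of 0.26. Atp5a1, the alpha subunit, gave 0.15, although its 3 probe sets ranged from -0.50 to 0.15. Atp5o, a stalk subunit that joins the head to the membrane part, was the lowest at -0.26. Its dimmer probe set gave -1.36 in embryoid bodies and 1.02 in teratomas, against -0.26 and 0.17 by the chosen one, so the size of its difference is uncertain.

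In teratomas the ATP synthase median was 0.088, with 12 of 17 above 0. Atp5g1, which encodes a copy of the proton-carrying c subunit, was the highest. It read 10.16 and 10.09 in embryoid bodies and 9.71 and 10.31 in the control and knockout teratoma, and the knockout was higher by 0.60. The other genes for the same c subunit did not share this. Atp5g2 gave -0.0019 in teratomas and Atp5g3, the lowest of the complex, -0.14. Atp5d, the delta subunit, and Atp5k, a membrane subunit, were at -0.10 and -0.059 by their chosen probe sets, while others gave 0.22 for Atp5d and -0.24 and 0.38 for Atp5k.

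Among the 4 complexes, the opposite signs in the tissues were commonest in complex I. Of its 33 measured subunits, 28 (84.8%) were below 0 in embryoid bodies and above 0 in teratomas, and 0 were the other way round. The same combination was found in 4 of 8 complex III, 3 of 11 complex IV and 9 of 17 complex V subunits, in 28.1% of 11187 genes measured in both tissues and in 34% of highly expressed genes. Among genes for other mitochondrial machinery, 32 of 76 mitochondrial ribosome genes and 5 of 8 complex I assembly factors showed it. Of 12 citric acid cycle genes, 9 were below 0 in embryoid bodies and 12 above 0 in teratomas. For the 4 complex II genes these counts were 3 and 4. The median of the teratoma difference minus the embryoid body difference was 0.42 for complex I, beside 0.20 for complex III, 0.014 for complex IV and 0.14 for complex V. For the complex I assembly factors that median was 0.24, for mitochondrial ribosome genes 0.20 and for all genes 0.039. For single subunits this difference was largest for Ndufb10 at 1.33, then Ndufs5 at 0.97 and Ndufa5 at 0.96, and was lowest for Cox7c at -1.20. The comparisons in the tissues use separate arrays, but each rests on 1 array a group, and whether complex I differs between tissues was not tested.

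**Figure D2:**
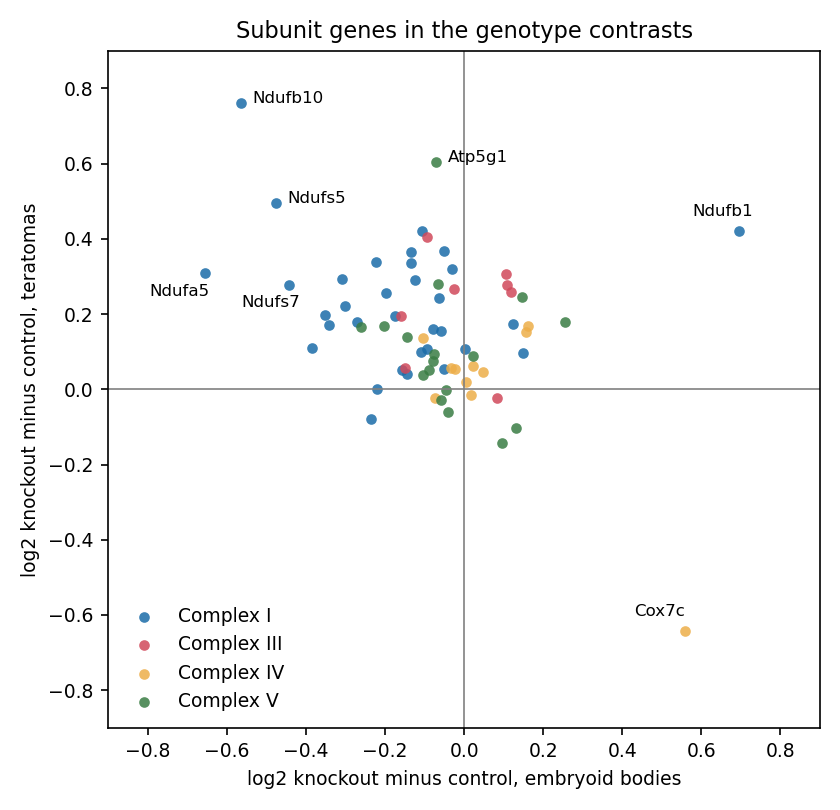
Each point is a measured broadly expressed subunit, placed by its log2 difference (knockout minus control) in embryoid bodies on the horizontal axis and in teratomas on the vertical axis, coloured by complex. The upper left area, lower in knockout embryoid bodies and higher in knockout teratomas, holds 28 of 33 complex I subunits, with Ndufb10 (-0.57 and 0.76) at its edge.

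Several other features moved alongside. In embryoid bodies the knockout array had lower primitive red cell markers (6 of 7 at least 2-fold lower, median -3.68) and lower heart muscle markers (4 of 5 measured, median -1.53). Neuron markers (6 of 9 measured, median 0.17) and skeletal muscle markers (5 of 14 measured, median -0.015) shifted little there, and leukocyte markers were below 0 in 4 of 4 measured (median -0.51), with Tyrobp 2-fold lower. In teratomas the knockout array had higher neuron markers (9 of 9 above 0, 5 at least 2-fold, median 1.05) and higher leukocyte markers (7 of 7 measured above 0, 4 at least 2-fold, median 1.47). Heart muscle markers were again lower (4 of 6 measured at least 2-fold, median -1.28). The Gapdh 3' minus 5' difference was also smaller on the knockout than on the control array in both tissues. The part of cell makeup and RNA integrity in the subunit differences was not tested, and in these bulk samples fewer cells of a type and less RNA per cell cannot be told apart.

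Among genes tied to the same metabolism, the succinate dehydrogenase genes of complex II had a median of -0.055 in knockout embryoid bodies and 0.26 in knockout teratomas, with 4 of 4 above 0 in the latter. The 12 measured citric acid cycle genes had medians of -0.054 and 0.18, with 3 and 12 above 0. Ogdh, a subunit of the 2-oxoglutarate dehydrogenase complex, was the highest of them in teratomas at 0.77. Cycs, the somatic cytochrome c, gave -0.25 and 0.35. Cyc1, cytochrome c1, whose symbol lies outside the rule for members, went the other way, at 0.19 and -0.090. The nucleotide and phosphate carriers and channels had medians of 0.0010 and 0.14, the latter with 6 of 6 measured above 0. None of these reached 2-fold. Cytosolic ribosome genes, another highly expressed set, had medians of -0.0098 and -0.012, and mitochondrial ribosome genes -0.050 and 0.13.

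Genes of the hypoxia response, which low oxygen induces, were mostly above 0 in both tissues. In embryoid bodies 9 of 10 measured were above 0, beside 53.3% of all measured genes, with a median of 0.25 and none at 2-fold. In teratomas 11 of 11 were above 0, beside 57.6%, with a median of 0.32, and Car9, a carbonic anhydrase, and Adm, the hormone adrenomedullin, were past 2-fold at 1.38 and 1.26. Of the regulators of mitochondrial biogenesis, Nrf1 was higher by 0.63 in knockout embryoid bodies and lower in knockout teratomas (-0.42). Gabpb1, a GABP subunit, went the same way, at 0.45 and -0.35. The regulators had medians of 0.094 over 11 measured in embryoid bodies and -0.022 over 12 in teratomas.

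Among the tissue-specific isoforms, Cox7a1, the form of heart and skeletal muscle, was the only member past 2-fold between genotypes by its chosen probe set. It was 1 of 83 members measured in teratomas, where 3.25% of 12197 measured genes were 2-fold higher. In embryoid bodies the count was 0 of 83, beside 2.18% of genes higher and 3.98% lower. A dimmer Atp5o probe set was also past 2-fold, at -1.36 in embryoid bodies and 1.02 in teratomas. Cox7a1 read 7.08 in the control and 7.13 in the knockout embryoid body, and 5.80 in the control and 7.05 in the knockout teratoma. The control teratoma alone stood low. The knockout difference was 0.049 in embryoid bodies and 1.25 in teratomas, a factor of 2.38, from a single probe set. With a floor at the 65th percentile this fell to 0.65. Between tissues it was lower in the teratoma at -1.28 in controls (-0.68 with that higher floor) and at -0.078 in knockouts. Its broadly expressed partner Cox7a2 differed by 0.022 and 0.061.

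Cox8b and Cox6a2, the other muscle isoforms, were higher in teratomas. Cox8b was under the floor in both embryoid bodies, at 3.67 and 3.88, and read 6.61 in the control and 7.54 in the knockout teratoma. It was at least 3.73-fold higher in the control teratoma and at least 6.99-fold higher in the knockout teratoma than in the embryoid body of the same genotype. Between the teratomas the knockout was higher by 0.93, just under 2-fold. With the floor raised to the 65th percentile, the control teratoma was above the control embryoid body by only 0.41. Cox6a2 read 6.09, 6.28, 7.01 and 7.53, higher in both teratomas than in both embryoid bodies and higher by 0.52 in the knockout than in the control teratoma. Their partners Cox8a and Cox6a1 differed by 0.15 and -0.016 between the teratomas.

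**Figure D3:**
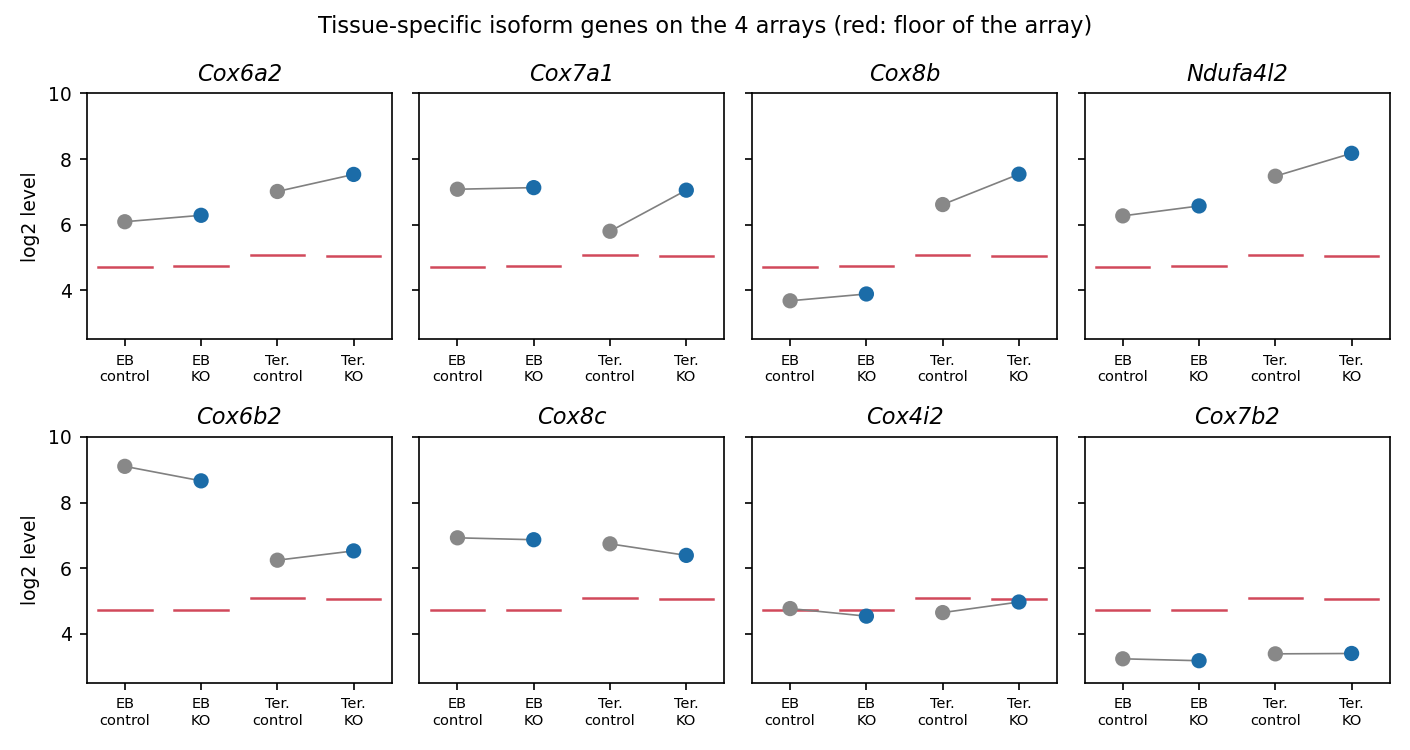
Log2 level of the tissue-specific isoforms on the 4 arrays (EB, embryoid body; Ter., teratoma; KO, knockout), with the floor of each array in red. Cox8b is under the floor in both embryoid bodies and at 6.61 and 7.54 in the teratomas, and Cox6b2 falls from 9.10 and 8.66 to 6.24 and 6.52.

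Skeletal muscle markers did not move as a block between the teratomas. Of 14 measured, 3 were at least 2-fold higher in the knockout and 4 at least 2-fold lower, with a median of 0.39. The oxygen-binding protein myoglobin, Mb, was higher by 2.60, the adult fast myosin Myh2 was at least 12.1-fold higher, and the fast-fibre actinin Actn3 was higher by 1.12. On the other side the embryonic myosin Myh3 was at -2.09, the perinatal myosin Myh8 at -1.35 and the differentiation factor Myog at -1.37, and the fast myosin Myh4 was at least 5.41-fold lower. Markers of heart muscle, where Cox7a1, Cox6a2 and Cox8b are also used, were lower, as given above. Brown fat is another tissue known to use Cox7a1 and Cox8b. Of its 6 markers, Ucp1, Elovl3, Ppara and Adipoq were under the floor on all 4 arrays, Cidea was at least 2.30-fold higher in the knockout teratoma, and Dio2 was higher by 0.55. The part of muscle content in the isoform differences was not tested.

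**Figure D4:**
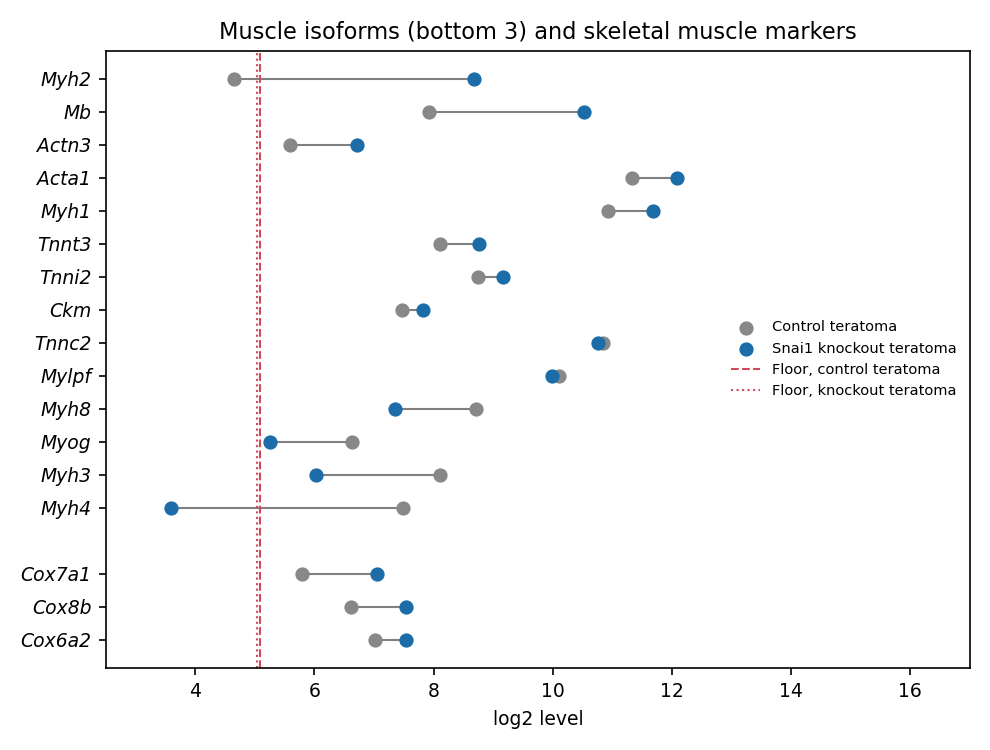
Log2 levels in the control and knockout teratoma of 14 skeletal muscle markers and, at the bottom, of Cox7a1, Cox8b and Cox6a2, with the floors of both arrays. Mb, Myh2 and Actn3 are higher in the knockout, Myh4, Myh3, Myog and Myh8 are lower, and all 3 isoforms are higher.

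Ndufa4l2, a relative of Ndufa4 known to be induced by low oxygen, was higher in teratomas and in the knockout. It read 6.27 and 6.57 in the control and knockout embryoid body and 7.48 and 8.17 in the teratomas. The knockout difference was 0.30 and 0.70, and the teratoma difference 1.21 in controls and 1.61 in knockouts, while for Ndufa4 the latter was -0.39 in both genotypes. Pericytes are the cells around small vessels that are known to express Ndufa4l2. Of their 8 markers, 5 were measured in embryoid bodies, with a median of -0.22, 1 above 0 and 4 below. These ranged from Pdgfrb at -1.92 to Notch3 at 0.62. In teratomas 7 were measured, with a median of 0.030, 4 above 0 and 3 below, from Notch3 at -0.39 to Cspg4 at 1.03. The part of vessel content was not tested.

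Cox6b2, an isoform known from sperm, was far lower in teratomas than in embryoid bodies. It read 9.10 and 8.66 in the control and knockout embryoid body and 6.24 and 6.52 in the teratomas. Both teratomas lay below both embryoid bodies, with differences of -2.86 in controls and -2.14 in knockouts, and its partner Cox6b1 differed by 0.039 and 0.091. Of 8 sperm and spermatid markers, 7 were under the floor on all 4 arrays, and Prm1 read between 5.19 and 5.92. Cox8c, also known from testis, read 6.92, 6.87, 6.74 and 6.39. Cox4i2, the lung isoform, was just above the floor on the control embryoid body array at 4.76 and under it on the others, so no direction can be given for it.

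Few subunits reached 2-fold between teratomas and embryoid bodies by the brightest probe set of each gene. In controls 1 of 69 subunits was 2-fold higher in the teratoma and 1 was 2-fold lower, against 16.2% and 19% of 12956 measured genes, and 6.37% and 12.8% of highly expressed ones. Both were dimly read, Cox7c at 1.24 and Ndufb1 at -1.03. In knockouts 0 of 69 were 2-fold higher and 1, Ndufb1 at -1.31, was lower, against 19.8% of 12936 genes in each direction and 8.64% and 12.1% of highly expressed ones. The median subunit difference was -0.22 in controls and 0.022 in knockouts, beside -0.18 and -0.15 for all measured genes and -0.28 and -0.23 for highly expressed ones. At 1.5-fold, 1 subunit was higher and 8 lower in controls, where 23.4% and 33.4% of genes were, and 2 were higher and 1 lower in knockouts, where 27.3% and 33.2% were. These tissue comparisons share their arrays with the genotype comparisons. With each array centred on its median probe set, the subunit medians became -0.59 and -0.29 and the all-gene medians -0.55 and -0.46, and 11.8% of genes were 2-fold higher and 31.6% lower in controls and 15.7% and 29.3% in knockouts. The sign of a small shift between tissues therefore depends on the scaling.

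**Figure D5:**
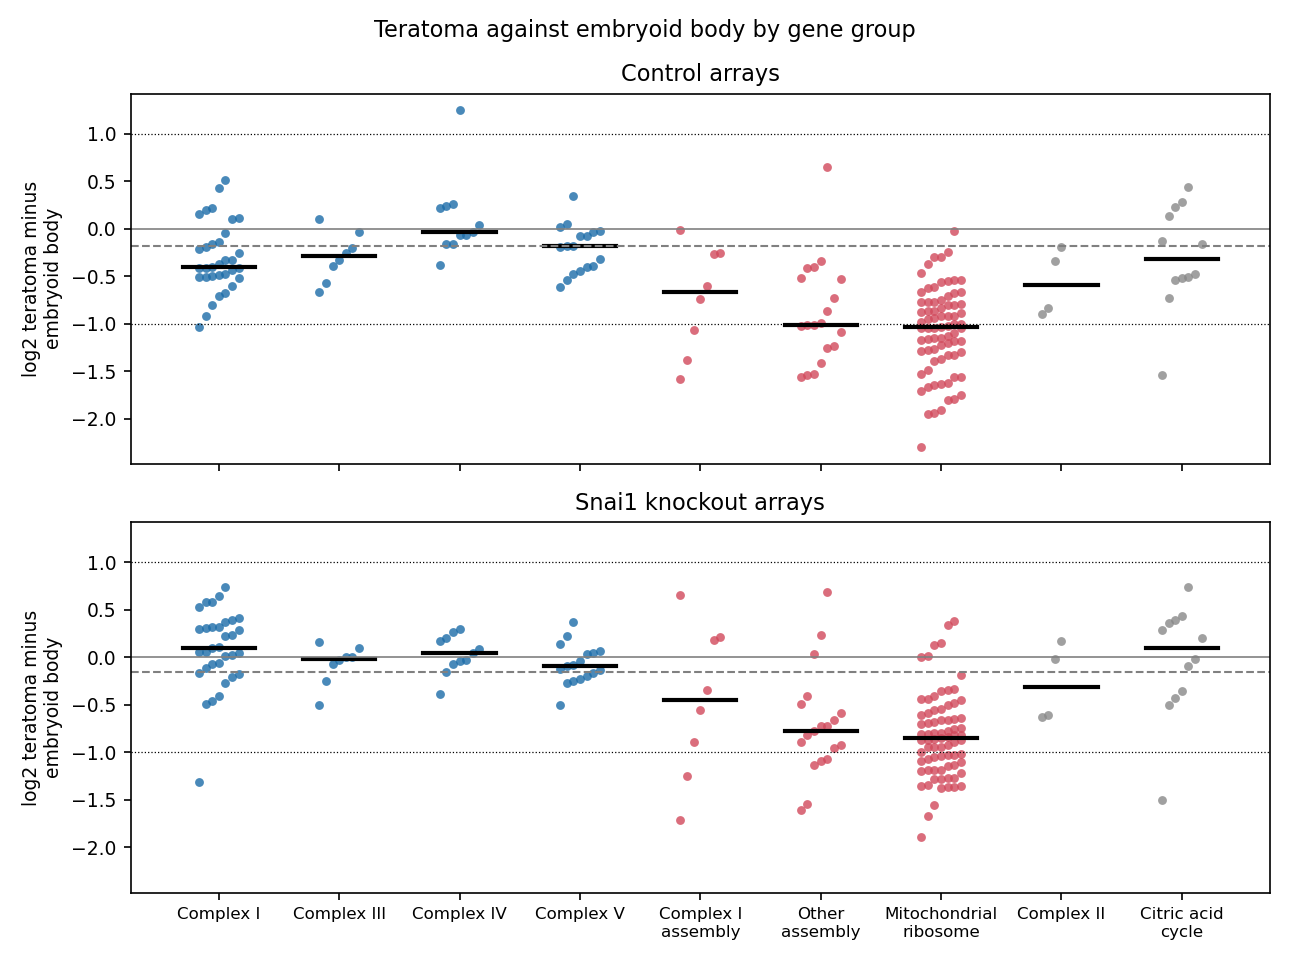
Log2 difference, teratoma minus embryoid body, of single genes (points) by gene group, with group medians as bars, for control arrays above and knockout arrays below. Dashed lines mark the all-gene medians of -0.18 and -0.15 and dotted lines 2-fold. In controls the medians are -0.40, -0.29, -0.034 and -0.19 for complexes I, III, IV and V. They are -0.67 for complex I assembly factors, -1.01 for other assembly factors and -1.04 for mitochondrial ribosome genes. Complex II is at -0.59 and the citric acid cycle at -0.32.

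By complex, the teratoma medians in controls were -0.40 for complex I, -0.29 for complex III, -0.034 for complex IV and -0.19 for complex V. In knockouts they were 0.092, -0.018, 0.043 and -0.094. In complex I the spread was wide. In controls Ndufb10 was at -0.92 and Ndufab1, the mitochondrial acyl carrier protein, at -0.80, while Ndufs8, a core iron-sulfur subunit, was higher by 0.51 and Ndufa12 by 0.43. For Ndufs8 that value comes from a shared-sequence probe set, and 4 of its 6 probe sets were below 0 in controls, the lowest at -0.22. In knockouts Ndufs8 was higher by 0.73, Ndufb11 by 0.64 and Ndufa12 and Ndufc2 each by 0.58. Uqcrc1, a core protein of complex III, was lower in teratomas of both genotypes, at -0.67 and -0.50, as was Atp5g2, at -0.54 and -0.50. Atp5l, a membrane subunit of the ATP synthase, was higher by 0.34 and 0.37.

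The assembly factors of complex I, which help to build it without staying in it, were mostly lower in teratomas. In controls 0 of 8 were above 0, as 42.4% of measured genes were, the median was -0.67, and 3 were 2-fold lower, beside 19% of measured genes. These were Ndufaf2 at -1.58, Ndufaf6 at -1.38 and Ndufaf1 at -1.07, the last of which was at -0.90 after quantile normalization. In knockouts 3 of 8 were above 0, beside 44.2% of measured genes, the median was -0.45 and 2 were 2-fold lower, Ndufaf6 at -1.72 and Ndufaf2 at -1.25, a share near the 19.8% of measured genes. Ndufaf2 read 8.16 and 7.70 in the control and knockout embryoid body and 6.58 and 6.45 in the teratomas, so both teratomas lay below both embryoid bodies. Between genotypes the 8 factors had medians of -0.13 in embryoid bodies and 0.12 in teratomas. Ndufaf5, which hydroxylates Ndufs7, had the largest such difference in teratomas, at 0.67, with levels of 7.14, 6.90, 6.88 and 7.55.

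Genes that build other parts of the system went lower in teratomas too. Of 19 measured assembly factors for complexes I, III, IV and V with other symbols, 10 were 2-fold lower in controls (median -1.01) and 5 in knockouts (median -0.77). Among them were Cox17, a copper chaperone, at -1.56 and -0.66, and Nubpl, an iron-sulfur protein needed for complex I, at -1.54 and -1.61. Between genotypes these factors had medians of 0.050 in embryoid bodies and 0.19 in teratomas. Of 76 mitochondrial ribosome genes, 42 were 2-fold lower in controls (median -1.04) and 28 in knockouts (median -0.85), and 0 and 6 were above 0. Over all measured genes 19% and 19.8% were 2-fold lower. Cytosolic ribosome genes had medians of -0.28 and -0.23, complex II -0.59 and -0.31, the citric acid cycle -0.32 and 0.093, and the carriers and channels -0.12 and -0.019.

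The regulators split in the same comparison. Tfam, which packages mitochondrial DNA and helps start its transcription, was lower in teratomas, at -1.39 in controls and -1.36 in knockouts. Gabpb1 was at -0.75 and -1.55. In the other direction, the coactivator Ppargc1a was under the floor in both embryoid bodies and read 8.59 and 9.13 in the teratomas, at least 14.8-fold and 21.1-fold higher. Esrrg, an orphan receptor it works with, was higher by 1.86 and 2.29. Over 12 measured regulators the medians were -0.39 and -0.90. Hypoxia genes were mixed between tissues, with medians of 0.39 and 0.13 and 7 and 6 of 11 above 0, from Slc2a1, a glucose transporter, at -1.86 and -1.17 to Adm at 2.31 and 3.51.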

How the data were processed

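RNA of 4 mouse samples was measured on Affymetrix arrays, 1 array a group, from 250 ng of total RNA per sample per the labels' protocols. The values the authors deposited are log2 expression levels of probe sets, for which the submitters' processing notes name affy and RMA. RMA corrects background, normalizes by quantiles and summarises probes. Neither their versions nor whether normalization covered the 4 arrays jointly is stated by the labels or notes. The number of arrays limits the precision, and depth does not apply.

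Of 45101 probe sets, 64 were controls and 34945 of the rest named 1 gene in the platform's annotation, 932 several and 9160 none. Each of 18193 genes was read by the probe set whose mean level was highest. Levels under an array's median non-control probe set were set to that floor, differences were taken between arrays, and 2-fold (log2 of 1) was the call. Comparisons were knockout minus control in each tissue and teratoma minus embryoid body in each genotype. Lists were summarised by counts and medians over measured genes, with bounds entered at their bound. The calculation was tested on simulated data. Symbol lists, isoform and assembly classes and all comparisons were written by hand. The members and lists were chosen with earlier results of these data known, so their directions are no independent support.

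Named in the text are all isoforms and their partners, the extremes of each complex and the 5 highest and 5 lowest subunits in each comparison, members past 2-fold or with probe sets 1 or more apart, and up to 4 genes of each list. Ndufs1, Ndufv2, Atp5a1, Gabpb1 and Nubpl, and members given for a role or opposite signs, were added after their values were seen. Promoter letters were searched on both strands in RefSeq windows. Alternatives varied the probe set, scaling, floor, fold, summary and members. Python 3.11.15, pandas 2.3.3, numpy 2.4.6 and matplotlib 3.10.9 were used.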

Additional observations from a re-analysis of the deposited data

Results flagged for a closer look

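The knockout difference had opposite signs in embryoid bodies and teratomas for several groups and genes, and none of these differences between tissues was tested, since each rests on 1 array a group. The medians were -0.076 and 0.16 for the broadly expressed subunits, -0.14 and 0.20 for complex I, -0.066 and 0.088 for complex V and -0.13 and 0.12 for the complex I assembly factors.

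Some single members had opposite signs, with both differences larger than the pooled standard deviation between probe sets, by their chosen probe sets. Ndufb10 gave -0.57 and 0.76, Ndufa5 -0.66 and 0.31, Ndufs5 -0.48 and 0.50 and Ndufs7 -0.44 and 0.28. The other Ndufs7 probe set gave -0.079 and 0.20, the former within that deviation. Smaller opposite values were found for Ndufa3 at -0.31 and 0.29, Ndufa2 at -0.30 and 0.22 and Ndufb2 at -0.22 and 0.34. A dim Ndufb2 probe set gave 0.062 in embryoid bodies. Outside the complex I subunits, the assembly factor Ndufaf5 gave -0.24 and 0.67 and the isoform Cox6b2 -0.44 and 0.28. Cox7c alone went the other way, at 0.56 and -0.64.

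Of 10 probe sets that name a member together with other genes and enter no comparison, 7 were above the floor on all 4 arrays. They read Ndufs5, Ndufb4, Ndufa11, Ndufs6, Ndufab1 and Ndufa13 together with gene copies or a neighbour.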

How the results depend on the processing

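The genotype medians kept their sign under every setting run, from -0.10 to -0.036 in embryoid bodies and 0.054 to 0.20 in teratomas for all subunits, and from -0.17 to -0.10 and 0.096 to 0.23 for complex I. The counts of complex I subunits above 0 ranged from 3 to 5 and from 21 to 32, the 21 being of 23 left without shared-sequence probe sets. Teratoma minus embryoid body was less stable. Centring on array medians gave -0.59 (controls) and -0.29 (knockouts) for all subunits and -0.77 and -0.22 for complex I, with 3 and 11 of 69 subunits and 2 and 10 of 33 complex I subunits above 0. Centring on highly expressed genes, chosen after seeing the data like all settings of complex I alone, gave 0.058 for all subunits in controls, with 37 and 58 of 69 above 0 and 13 of 33 in complex I in controls. Without shared-sequence probe sets the knockout median was -0.076, with 4 of 47 and 20 of 50 subunits and 1 of 24 and 14 of 25 complex I subunits above 0. Quantile normalization gave 31 of 69 and 11 of 33 in controls. At 1.5-fold, 1 subunit was higher and 1 lower in knockout embryoid bodies, 2 higher and 1 lower in knockout teratomas, 2 higher in teratomas of knockouts and 8 lower in those of controls. The 1 subunit 2-fold higher in control teratomas, Cox7c, became 0 under array centring, quantile normalization, the 65th-percentile floor, averaged probe sets and without shared-sequence ones. The 1 lower became 6 under array centring, 3 under averaging, 3 without shared-sequence probe sets and 0 at the 65th-percentile floor, where the 1 lower in knockouts also became 0. Beyond fewer genes measured, the cause was not tested. In single members, Cox6a2 in knockouts fell to 0.94 under array centring and 0.98 under averaging, and Ndufa4l2 in controls to 0.84. No paired analysis was possible because each group has 1 array and the labels carry no replicate numbers.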

Other observations

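The probe sets shared between members and gene copies, which enter no comparison, gave these values for knockout minus control. Those of Ndufb4 and its copies differed by 0.13 and 0.14 in embryoid bodies and by -0.019 and 0.33 in teratomas, and Ndufb4 cannot be told apart from its copies there. The probe set of Ndufa11 and its copy gave -0.13 and 0.27, that of Ndufs6 and its copy -0.025 and 0.071, that of Ndufab1 and its pseudogene -0.15 and 0.18, and that of Ndufa13 and Yjefn3 -0.19 and 0.11. Cyct, the testis form of cytochrome c, was under the floor on 3 arrays and read 6.17 in the knockout teratoma, at least 2.12-fold above the control teratoma, while 7 of 8 sperm and spermatid markers were under the floor on all 4 arrays.

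Among subunits with at least 2 measured probe sets, the next-brightest probe set agreed in sign with the brightest for 33 of 40 in embryoid bodies and 33 of 39 in teratomas. For complex I it agreed for 18 of 20 and 18 of 19. In embryoid bodies the next-brightest probe set gave the larger difference in size for 27 of 40 subunits, and the median was -0.16 by that probe set against -0.091 by the brightest. In teratomas this was so for 21 of 39, with medians of 0.16 and 0.15.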
